A study of Mus musculus with 8 samples.

Results

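The genes described here are 36 regulators and parts of mitosis and cytokinesis, chosen by symbol from a list of genes that act at G2/M, in the spindle checkpoint, at the kinetochore and in cytokinesis. They were chosen with earlier results of these data known, so counts of members beside shares of all genes are descriptions. All 36 members were found among the 24421 gene symbols counted in poly(A) RNA of perfused adult mouse liver. There were 4 WT and 4 CAPZ_KO libraries, with 12060350 to 18916315 counted reads in WT and 13122355 to 16984971 in CAPZ_KO. The mice were on a C57BL/6N background and 8 to 10 weeks old. CAPZ_KO livers carried floxed Capzb alleles (Capzb-fl/fl) and the Albumin-CreERT2 transgene, in which the albumin promoter, active in hepatocytes, drives a tamoxifen-inducible Cre. They had received 5 daily tamoxifen injections begun at 4 to 6 weeks of age. The livers labelled WT also carried Capzb-fl/fl and came either from injected mice without Cre or from uninjected mice with Albumin-CreERT2. Nothing in the labels ties a WT library to either kind, so Cre activity, tamoxifen and the loss of Capzb cannot be told apart here. Nor is it stated that each library came from a separate animal, so p-values reflect only the spread among these 8 libraries, which may be technical. Capzb, the beta subunit of the capping protein that blocks the growing ends of actin filaments, was lower in every CAPZ_KO library (69.4, 79.6, 64.5 and 76.4 CPM in CAPZ_KO 1 to 4) than in every WT library (139.6, 109.4, 117.7 and 113.8 CPM in WT 1 to 4). The remaining Capzb reads may come from any cell of the liver. Levels are given in CPM, a gene's count relative to the library size after TMM scaling, which evens out differences in library composition.

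Cells enter mitosis when CDK1 bound to A- and B-type cyclins becomes active. Microtubules then attach to the kinetochores built on each centromere, and the spindle checkpoint holds the anaphase-promoting complex until all are attached. After anaphase the spindle midzone and RhoA direct an actin and myosin ring that divides the cytoplasm. Adult hepatocytes rarely divide, and many carry extra genome copies after cytokinesis failed or was skipped. The genes of this program are transcribed late in the cell cycle, and their promoters often hold a cell cycle homology region (CHR), to which the DREAM and MuvB complexes bind, next to CCAAT boxes, to which NF-Y binds.

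RNA of the mitosis genes was higher in CAPZ_KO than in WT liver, and the size of the difference varied widely among the CAPZ_KO libraries. Summed over the 36 genes, the level was 66.7, 67.3, 43.3 and 61.1 CPM in WT 1 to 4, and 405.6, 105.4, 229.2 and 121.6 CPM in CAPZ_KO 1 to 4. Every CAPZ_KO library was above every WT library, and CAPZ_KO 1 stood well above the rest. The genes remained a small part of the RNA: their raw reads were 610 to 1023 per WT library and 2116 to 9001 per CAPZ_KO library, so that counting error is large for single genes in WT. In RNA of whole liver, more cells of a type or in a phase and more RNA per cell cannot be told apart.

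With no filter on low counts, so that every member was tested, 29 of the 36 genes were higher by the edgeR quasi-likelihood test at an adjusted p under 0.05, against 17.5% of all genes with a count. The other 7 (Ccnb1, Mki67, Cenpe, Cks2, Cenpa, Kif11 and Ect2) also had positive fold changes. Of these, Ccnb1, Mki67 and Cenpe passed with the usual filter, as given below, but not here (adjusted p = 0.0528, 0.0613 and 0.0584). Of the 18 members that reached the count minimum in every WT library, 15 rose, against 19.1% of all such genes. With the usual filter 34 members were tested and 30 rose, against 22.4% of the 12985 genes tested (41.4% passed in either direction). Another 16 of those 34 reached the minimum only through the CAPZ_KO libraries, where they were high. These were Ccna2, Ccnb1, Ccnb2, Plk1, Cdc20, Bub1, Cenpe, Cenpf, Ndc80, Nuf2, Aurkb, Kif2c, Tpx2, Nusap1, Hmmr and Ect2. The count of 30 and all later counts over tested members are therefore descriptions. Among the tested members 0 were lower, and 0 were lower at an unadjusted p under 0.05, while 19.0% of all tested genes fell. The median log2 fold change was 2.17 over the tested members (4.51-fold), beside -0.003 over all tested genes, and 2.24 over the 36 with no filter. All 4 CAPZ_KO libraries lay above all 4 WT libraries for 25 of the 36 genes. Of the 34 tested members this held for 23, against 22.1% of all tested genes. A fold change below is a log2 ratio of CAPZ_KO over WT from edgeR, given with its standard error (SE) and with p adjusted over all tested genes. A gene is said to have risen or fallen only where this p was under 0.05.

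**Figure D1:**
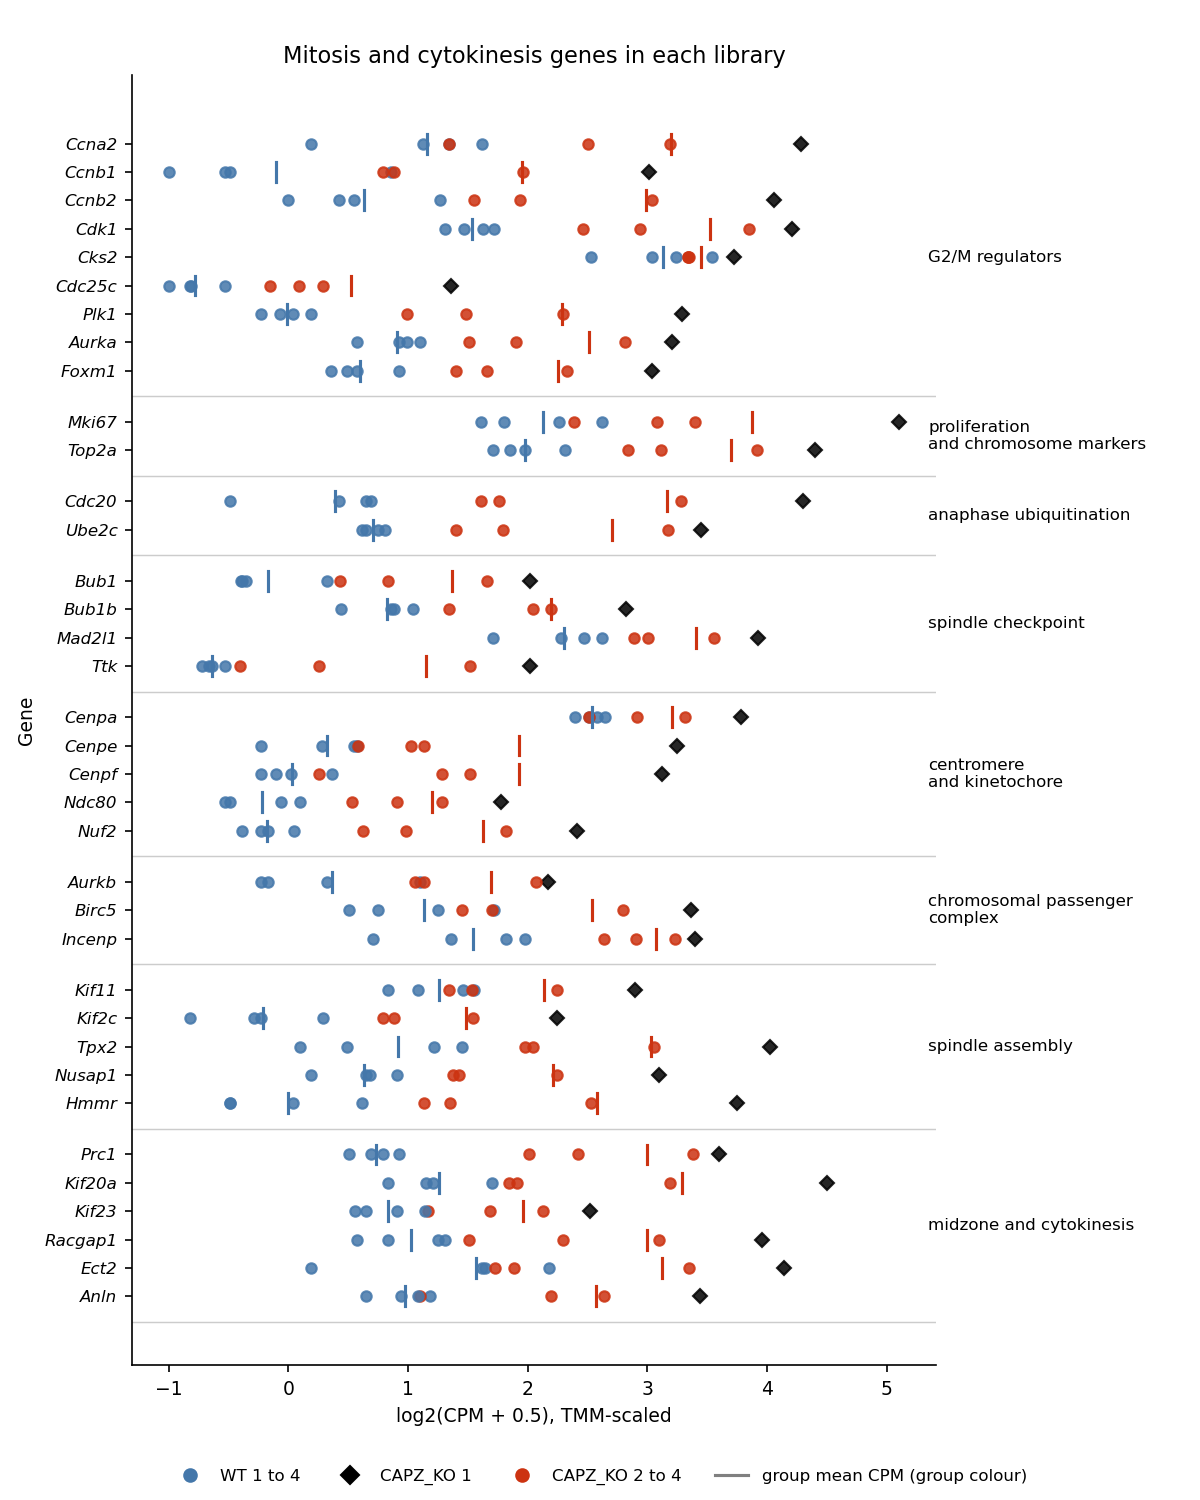
Level of each of the 36 genes in each library, as log2(CPM + 0.5) after TMM scaling, grouped by role; blue points are WT 1 to 4, black diamonds CAPZ_KO 1, red points CAPZ_KO 2 to 4, and vertical ticks mark the mean CPM of each group. The black diamond is the rightmost point in 36 of 36 rows, and red and blue points overlap for genes such as Cks2, Cenpa and Kif11.

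The promoters of most members held the same short sequences. RefSeq promoter sequences (GRCm38.p6, 250 bases before to 50 after the annotated start) were matched by symbol for 29 of the 36 genes. The CHR was searched on both strands as TTTGAA or TTCGAA, and the CCAAT box as CCAAT, which reads ATTGG on the other strand. Matches can share bases with one another. The bases before the start are shown for Top2a, which had the most CHR matches, for Ccnb2, for Kif11, which has a CHR and did not pass the test, for Nuf2, which has no match and rose, and for Cks2, which has CCAAT boxes but no CHR and did not pass the test. These windows lie at chr11:99024190-99024439 on the minus strand (Top2a), chr9:70421555-70421804 on the minus strand (Ccnb2), chr19:37376132-37376381 on the plus strand (Kif11), chr1:169531465-169531714 on the minus strand (Nuf2) and chr13:51644982-51645231 on the plus strand (Cks2), all outside the annotated transcripts of their gene. Each is read 5′ to 3′ along the gene, and capitals mark CHR and CCAAT matches. Matches after the start are not shown, which are a CHR at base 5 for Ccnb2 and CCAAT boxes at bases 15 and 33 for Cks2.
Top2a: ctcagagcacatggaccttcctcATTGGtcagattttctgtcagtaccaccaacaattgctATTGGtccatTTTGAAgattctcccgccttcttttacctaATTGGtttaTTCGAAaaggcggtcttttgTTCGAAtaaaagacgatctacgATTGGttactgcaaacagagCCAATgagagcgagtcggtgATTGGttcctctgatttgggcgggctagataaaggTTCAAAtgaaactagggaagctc
Ccnb2: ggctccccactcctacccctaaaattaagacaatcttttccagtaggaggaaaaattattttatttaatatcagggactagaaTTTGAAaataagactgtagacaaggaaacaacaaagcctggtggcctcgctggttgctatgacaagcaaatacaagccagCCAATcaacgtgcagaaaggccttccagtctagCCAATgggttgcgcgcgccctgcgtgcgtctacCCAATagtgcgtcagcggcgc
Kif11: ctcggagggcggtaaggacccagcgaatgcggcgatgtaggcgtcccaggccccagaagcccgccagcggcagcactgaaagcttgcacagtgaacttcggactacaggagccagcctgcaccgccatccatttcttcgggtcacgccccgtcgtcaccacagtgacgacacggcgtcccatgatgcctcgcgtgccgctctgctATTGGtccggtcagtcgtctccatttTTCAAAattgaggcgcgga
Nuf2: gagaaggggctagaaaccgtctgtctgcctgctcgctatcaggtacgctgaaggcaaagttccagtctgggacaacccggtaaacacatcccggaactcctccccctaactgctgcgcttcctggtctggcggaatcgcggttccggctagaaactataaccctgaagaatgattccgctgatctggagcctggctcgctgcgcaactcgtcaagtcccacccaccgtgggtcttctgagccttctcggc
Cks2: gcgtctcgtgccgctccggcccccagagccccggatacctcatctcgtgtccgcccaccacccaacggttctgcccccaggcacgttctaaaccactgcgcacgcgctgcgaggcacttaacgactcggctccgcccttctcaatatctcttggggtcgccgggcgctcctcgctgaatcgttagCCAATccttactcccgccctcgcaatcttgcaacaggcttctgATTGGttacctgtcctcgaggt

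A CHR in either form was present in 22 of the 29 promoters (75.9%), beside 21.7% of the 27025 genes with a promoter sequence and 16.5% of those that were tested for expression. CCAAT boxes were present in 75.9% of the members, beside 41.1% of all genes, and 51.7% held at least 2, beside 13.3%. Of the 29 S phase genes with a promoter sequence 55.2% held a CCAAT box and 31.0% at least 2. Both motifs together occurred in 65.5% of the members and 8.61% of all genes. The CHR lay within 50 bases of the start in 20 members, and in 14 a match began after the start. An E2F site, searched as TTTGGCGC or TTTCGCGC on both strands, was found in 1 member, Cdk1 (3.45%), beside 0.929% of all genes and 31.0% of 29 S phase genes, of which 20.7% held a CHR. Of the 21 tested members with a CHR match 18 rose, and of the 7 without one 6 rose. Birc5, Mad2l1, Nuf2 and Nusap1 had none of these letters in the window and rose. A match describes the letters of the window and is not a measured binding site.

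**Figure D2:**
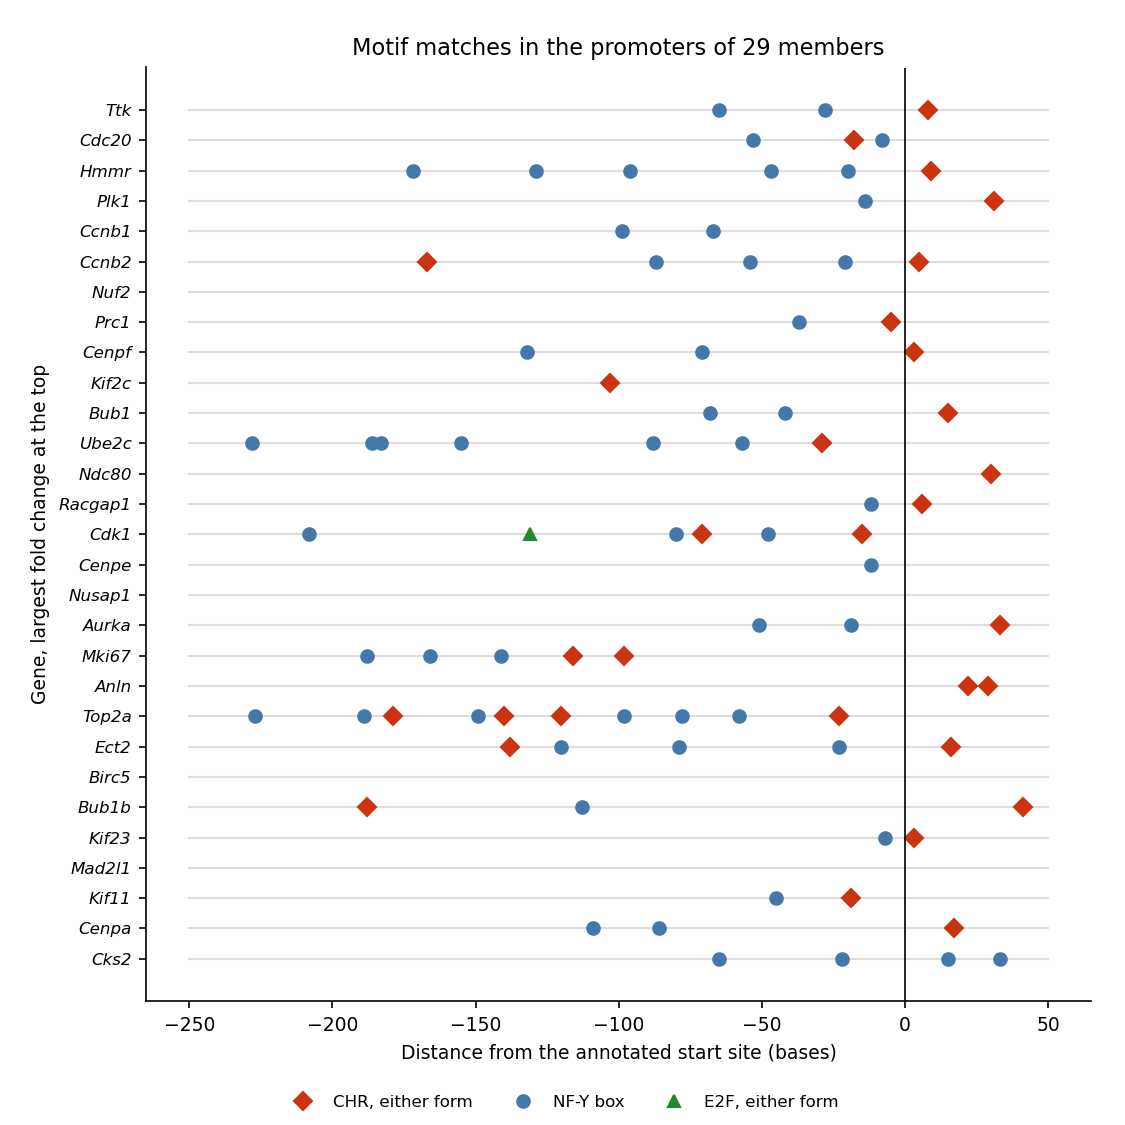
Position of motif matches in the promoters of 29 members, as the distance in bases of the first base of a match from the annotated start, with the largest fold change at the top (that of Ttk from the fit with no filter); red diamonds are CHR matches, blue circles CCAAT (NF-Y) boxes and the green triangle an E2F match. CHR matches gather near the start, with 20 genes having a match from 50 bases before to 50 bases after it; for Ect2 and Prc1, which have 2 windows each, the first is drawn.

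Among the G2/M regulators, the kinase Cdk1 and its cyclins rose. Cdk1 measured 2.79, 1.97, 2.27 and 2.59 CPM in WT 1 to 4, and 18.0, 7.17, 13.9 and 5.01 CPM in CAPZ_KO 1 to 4. All CAPZ_KO libraries lay above all WT libraries, and the log2 fold change was 2.20 (SE 0.391, adjusted p = 0.00169). Cyclin B2 (Ccnb2), a mitotic partner of CDK1, measured 0.965, 1.91, 0.497 and 0.843 CPM in WT and 16.2, 2.44, 7.74 and 3.32 CPM in CAPZ_KO. Its groups did not overlap either, with a log2 fold change of 2.80 (SE 0.660, adjusted p = 0.00805). Cyclin B1 (Ccnb1) was at 0.215, 1.32, 0 and 0.194 CPM in WT and at 7.57, 1.35, 3.39 and 1.23 CPM in CAPZ_KO. WT 2 lay above CAPZ_KO 4, and the log2 fold change of 2.89 (SE 0.915) passed with an adjusted p of 0.0304. That call rested on single libraries, since it was lost without CAPZ_KO 1 (2.08, adjusted p = 0.0859) and without any of 4 others (WT 1, WT 3, WT 4 or CAPZ_KO 3). Cyclin A2 (Ccna2), which binds CDK2 and CDK1 from S phase to early mitosis, was at 2.04 CPM in CAPZ_KO 2, within its WT range of 0.639 to 2.57 CPM, and at 5.16 to 19.0 CPM in the other CAPZ_KO libraries (log2 fold change 2.33, SE 0.660, adjusted p = 0.0191). By limma-voom Ccna2 did not pass (adjusted p = 0.0765).

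Polo-like kinase 1 (Plk1), which drives mitotic entry, measured 0.644, 0.526, 0.355 and 0.454 CPM in WT and 9.28, 1.49, 4.41 and 2.30 CPM in CAPZ_KO. Its lowest CAPZ_KO library was more than 2-fold above its highest WT library, and the log2 fold change was 3.15 (SE 0.603, adjusted p = 0.00252). Aurora kinase A (Aurka), which acts at the spindle poles, rose by a log2 fold change of 1.91 (SE 0.423, adjusted p = 0.00514). The transcription factor Foxm1, which activates late cell cycle genes, rose by 2.09 (SE 0.434, adjusted p = 0.00376), from 0.781 to 1.39 CPM in WT to 2.14 to 7.71 CPM in CAPZ_KO. Cdc25c, the phosphatase that activates CDK1, had too few reads for the filter. It was at 0, 0.0658, 0.0710 and 0.194 CPM in WT and at 2.07, 0.399, 0.726 and 0.562 CPM in CAPZ_KO. The groups did not overlap, and with no filter its log2 fold change was 3.28 (SE 0.764, adjusted p = 0.00584). Cks2, a small subunit that binds CDK1, did not pass the test. It had the highest level per kilobase of exon of all members in both groups, 15.1 CPM per kb in CAPZ_KO, and measured 11.2, 5.26, 7.74 and 8.95 CPM in WT against 12.8, 9.71, 9.62 and 9.61 CPM in CAPZ_KO. The groups overlapped, and its log2 fold change of 0.34 (SE 0.224, adjusted p = 0.246) was the smallest of the tested members.

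The proliferation marker Mki67, whose protein coats mitotic chromosomes, measured 4.29, 5.66, 2.56 and 2.98 CPM in WT and 34.0, 4.73, 10.0 and 7.98 CPM in CAPZ_KO. CAPZ_KO 2 lay below WT 2, and CAPZ_KO 1 was 3.38-fold above the next CAPZ_KO library. The log2 fold change was 1.88 (SE 0.599, adjusted p = 0.0326), and it was 0.94 (adjusted p = 0.0582) without CAPZ_KO 1. The call was also lost without WT 1, WT 3 or WT 4. Topoisomerase II alpha (Top2a), which untangles sister chromatids, was more even, with 3.43, 4.47, 2.77 and 3.11 CPM in WT and 20.6, 6.68, 14.6 and 8.18 CPM in CAPZ_KO. Its groups did not overlap, and its log2 fold change was 1.86 (SE 0.358, adjusted p = 0.0026), or 1.47 without CAPZ_KO 1 (adjusted p = 0.00571). Exons of Top2a overlap a small RNA gene on the same strand, and those of Foxm1 overlap Gm44596 and Tex52.

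Both members that work with the anaphase-promoting complex to mark proteins for destruction rose. Cdc20, its mitotic activator, measured 1.07, 1.12, 0.213 and 0.843 CPM in WT and 19.2, 2.89, 9.25 and 2.56 CPM in CAPZ_KO. No library of one group fell within the other, and the log2 fold change of 3.39 (SE 0.756, adjusted p = 0.0062) was the largest of the tested members. Ube2c, the E2 enzyme that starts its ubiquitin chains, varied little in WT (1.18, 1.25, 1.06 and 1.04 CPM) and measured 10.4, 2.14, 8.53 and 2.97 CPM in CAPZ_KO. It rose by a log2 fold change of 2.40 (SE 0.510, adjusted p = 0.00436). Exons of Cdc20 overlap those of Elovl1 on the opposite strand, and exons of Ube2c those of Tnnc2, and the strand setting of the counting is not given in the sources used here.

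In the spindle checkpoint, all 4 members had CAPZ_KO libraries above every WT library. Bub1, a kinase of unattached kinetochores, measured 0.751, 0.263, 0.284 and 0.259 CPM in WT and 3.56, 0.847, 2.66 and 1.28 CPM in CAPZ_KO, a 5.66-fold difference (log2 SE 0.564, adjusted p = 0.00563). Bub1b, the BubR1 part of the inhibitor of Cdc20, rose by 1.66 (SE 0.367, adjusted p = 0.00506). Mad2l1, which binds Cdc20, rose by 1.19 (SE 0.297, adjusted p = 0.0097), the smallest of the fold changes that passed the test. It measured 5.04, 4.34, 2.77 and 5.64 CPM in WT and 14.7, 7.52, 11.3 and 6.90 CPM in CAPZ_KO. Ttk, the Mps1 kinase that starts checkpoint signalling, was too low for the filter, at 0.107, 0.132, 0.142 and 0.194 CPM in WT and 3.56, 0.697, 2.36 and 0.256 CPM in CAPZ_KO. Its groups were apart but close in CAPZ_KO 4, and with no filter its log2 fold change was 3.48 (SE 0.828, adjusted p = 0.00816).

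Of the 5 centromere and kinetochore members 4 rose. Nuf2 and Ndc80, which form the arm of the NDC80 complex that grips microtubules, rose by log2 fold changes of 2.77 (SE 0.545, adjusted p = 0.00279) and 2.27 (SE 0.479, adjusted p = 0.00401). Nuf2 was at 0.536, 0.263, 0.355 and 0.389 CPM in WT and at 4.82, 1.05, 3.02 and 1.48 CPM in CAPZ_KO, with no overlap. The large coiled-coil protein genes Cenpf and Cenpe had the widest gaps between CAPZ_KO 1 and the next CAPZ_KO library of the 36 genes. Cenpf was at 8.20 CPM there and at 0.697, 2.36 and 1.94 CPM in CAPZ_KO 2 to 4, against 0.355 to 0.790 CPM in WT. Its log2 fold change was 2.63 (SE 0.725, adjusted p = 0.0162), and 1.60 without CAPZ_KO 1 (adjusted p = 0.0301), and by limma-voom it did not pass (adjusted p = 0.0805). Cenpe, a kinesin that moves chromosomes to the spindle equator, was at 9.01 CPM in CAPZ_KO 1 and at 0.996, 1.69 and 1.53 CPM in CAPZ_KO 2 to 4, against 0.355 to 0.987 CPM in WT. CAPZ_KO 1 was thus 5.32-fold above the next library for Cenpe and 3.48-fold for Cenpf. Its log2 fold change was 2.15 (SE 0.744, adjusted p = 0.0424), and 0.87 without CAPZ_KO 1 (adjusted p = 0.12), and the call was also lost without any 1 of the 4 WT libraries. Cenpa, the histone H3 variant of centromeres, did not pass, with 5.47, 5.20, 4.76 and 5.77 CPM in WT and 13.3, 7.02, 9.43 and 5.22 CPM in CAPZ_KO. CAPZ_KO 4 lay within WT, and the log2 fold change was 0.72 (SE 0.271, adjusted p = 0.0543).

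The chromosomal passenger complex corrects wrong attachments and then moves to the midzone. Its scaffold Incenp had the narrowest span among the CAPZ_KO libraries of the members that rose, 1.75-fold from lowest to highest, with 3.43, 3.03, 1.14 and 2.07 CPM in WT and 10.0, 6.97, 8.89 and 5.73 CPM in CAPZ_KO. Its log2 fold change was 1.72 (SE 0.327, adjusted p = 0.0023), and 1.55 without CAPZ_KO 1 (adjusted p = 0.00857). Its kinase Aurkb rose by 1.79 (SE 0.526, adjusted p = 0.0208) and its subunit Birc5 (survivin) by 1.68 (SE 0.522, adjusted p = 0.0268). For both, the groups overlapped. Aurkb was at 1.65 CPM in WT 2 and 1.58 CPM in CAPZ_KO 4, and Birc5 at 2.79 CPM in WT 1 and 2.24 CPM in CAPZ_KO 2. Both calls were lost without CAPZ_KO 1 (adjusted p = 0.0614 for Aurkb and 0.0834 for Birc5), without CAPZ_KO 3 and without WT 3, and that of Birc5 also without WT 2.

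Of the spindle assembly genes 4 of 5 rose. Hmmr, a microtubule-binding protein of the spindle poles, measured 0.215, 0.526, 0.213 and 1.04 CPM in WT and 12.9, 1.69, 5.26 and 2.05 CPM in CAPZ_KO. The groups were apart, and its log2 fold change of 3.38 (SE 0.780, adjusted p = 0.00728) was next to that of Cdc20. Tpx2, which activates Aurora A and nucleates microtubules, rose by 2.48 (SE 0.595, adjusted p = 0.00857). Kif2c, a kinesin that takes microtubule ends apart, rose by 2.62 (SE 0.604, adjusted p = 0.00627), and the microtubule bundler Nusap1 by 1.98 (SE 0.479, adjusted p = 0.00819). Kif11, the kinesin-5 motor that pushes the poles apart, measured 2.25, 2.43, 1.28 and 1.62 CPM in WT and 6.94, 2.04, 4.23 and 2.40 CPM in CAPZ_KO. CAPZ_KO 2 and CAPZ_KO 4 lay within the WT range, and the log2 fold change of 1.05 (SE 0.411, adjusted p = 0.0636) did not pass.

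Of the 6 genes of the midzone and cytokinesis 5 rose. Prc1, which crosslinks the antiparallel microtubules of the midzone, measured 1.39, 1.12, 0.923 and 1.23 CPM in WT and 11.6, 3.54, 9.92 and 4.86 CPM in CAPZ_KO. Its lowest CAPZ_KO library was more than 2-fold above its highest WT library. The log2 fold change was 2.69 (SE 0.405) and the adjusted p of 0.000627 was the smallest of the members. It was 2.36 without CAPZ_KO 1 (adjusted p = 0.00181). Kif20a, a kinesin that carries the passenger complex to the midzone, was at 1.72, 2.76, 1.28 and 1.82 CPM in WT and at 22.1, 3.09, 8.65 and 3.27 CPM in CAPZ_KO. It rose by 2.28 (SE 0.648, adjusted p = 0.0193), a call lost without WT 1 or WT 3. The 2 subunits of centralspindlin also rose, Kif23 by 1.39 (SE 0.368, adjusted p = 0.0127) and Racgap1 by 2.27 (SE 0.544, adjusted p = 0.00843). Anln, the anillin scaffold that ties RhoA to actin and myosin in the cleavage furrow, was at 1.07, 1.78, 1.42 and 1.62 CPM in WT and at 10.4, 1.64, 5.75 and 4.09 CPM in CAPZ_KO. CAPZ_KO 2 fell within the WT range, and the log2 fold change was 1.87 (SE 0.491, adjusted p = 0.0126), with an adjusted p of 0.0705 by limma-voom. Ect2, the exchange factor that activates RhoA at the cell equator, was at 2.57, 2.63, 0.639 and 4.02 CPM in WT and at 17.2, 3.19, 9.68 and 2.81 CPM in CAPZ_KO. The spread within both groups was wide, and its log2 fold change of 1.73 (SE 0.667, adjusted p = 0.0633) did not pass.

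By the GENCODE annotation of GRCm38, 26 members share no exon bases with another gene. A partner on the other strand overlaps the exons of 8 (Ccna2, Cdc25c, Plk1, Cdc20, Ube2c, Nusap1, Prc1 and Kif20a), whose counts may include reads of that partner.

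The libraries of CAPZ_KO kept nearly the same order for every gene. CAPZ_KO 1 was the highest of all 8 libraries for 36 of 36 members. Among the 12985 tested genes it was the highest of all 8 libraries for 2000, and the highest of the 4 CAPZ_KO libraries for 28.9%. CAPZ_KO 3 came next for 34 members, and both held together for 13.3% of all tested genes. CAPZ_KO 2 was the lowest CAPZ_KO library for 23 members and CAPZ_KO 4 for 13. CAPZ_KO 1 exceeded the next CAPZ_KO library by 1.09-fold (Aurkb) to 5.32-fold (Cenpe), with a median of 1.67-fold, and the lowest one by a median of 4.48-fold. Within WT, WT 3 was the lowest for 24 members. Since the members move together from library to library, they are not independent measures of the difference. Their median biological coefficient of variation was 46.0%, beside 20.7% over all tested genes.

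Without CAPZ_KO 1, 25 of 34 tested members rose, against 18.7% of all genes tested in that fit. The median log2 fold change was 1.56 (2.96-fold). As above, counts over the 34 tested members are descriptions. CAPZ_KO 2 to 4 still lay above every WT library for 25 of the 36 genes, against 24.1% of all tested genes. The 25 include Cdc25c and Ttk, which were too low for the filter. The 5 calls that needed CAPZ_KO 1 were those of Ccnb1, Mki67, Cenpe, Aurkb and Birc5. In all 8 fits that each left out 1 library, 24 members passed every time. By limma-voom, 23 of the 34 tested members were higher, against 22.5% of all tested genes, and the 7 calls lost were those of Ccna2, Mki67, Cenpe, Cenpf, Birc5, Kif20a and Anln. CAPZ_KO 1 also stood apart in the summed CPM of several marker lists, a sum in which abundant markers weigh most. Markers of cholangiocytes summed to 1108 CPM in CAPZ_KO 1 and 380.5 to 776.4 CPM in CAPZ_KO 2 to 4, against 51.9 to 87.7 CPM in WT, and 5 of 8 rose. Markers of stellate cells and fibroblasts summed to 1238 CPM in CAPZ_KO 1 and 819.5 to 957.0 CPM in the others, against 347.6 to 418.5 CPM in WT, and 7 of 8 rose. Hepatocyte markers were at their lowest sum in CAPZ_KO 1, 39134 CPM against 47832 to 60089 CPM in CAPZ_KO 2 to 4 and 170097 to 215146 CPM in WT, and 8 of 9 tested fell. Per gene, their median log2(CPM + 0.5) minus the WT mean was -1.80, -1.55, -1.85 and -0.97 in CAPZ_KO 1 to 4. Kupffer cell markers had their lowest CAPZ_KO sum in CAPZ_KO 1 (986.8 CPM) and their highest in CAPZ_KO 4 (3337 CPM), against 469.3 to 1334 CPM in WT. Of these markers 2 of 6 rose, or 4 of 6 without CAPZ_KO 1. Markers of monocytes and macrophages also had their lowest CAPZ_KO sum in CAPZ_KO 1, and 5 of 7 rose. Their sums were 390.4 CPM in CAPZ_KO 1, 551.2 to 698.1 CPM in CAPZ_KO 2 to 4 and 265.7 to 445.0 CPM in WT. Per gene, on the scale used for the hepatocyte markers, their median was 2.93, 2.97, 2.33 and 2.31 in CAPZ_KO 1 to 4. By that measure CAPZ_KO 1 was not the lowest, and it was the highest CAPZ_KO library for 3 of the 7 markers. Neutrophil markers (1 of 4 rose, or 2 without CAPZ_KO 1) and endothelial markers (2 of 6 rose) had overlapping sums in WT and CAPZ_KO. Of T and NK cell markers 0 of 7 and of B cell markers 0 of 4 tested passed by edgeR, and 2 of 3 tested erythroid markers fell (1 without CAPZ_KO 1), with Hbb-bt and Hba-a1 at 0 in all libraries. Beside these marker counts, 22.4% of all tested genes rose and 19.0% fell with all 8 libraries. The part of each cell type in the result was not tested.

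**Figure D3:**
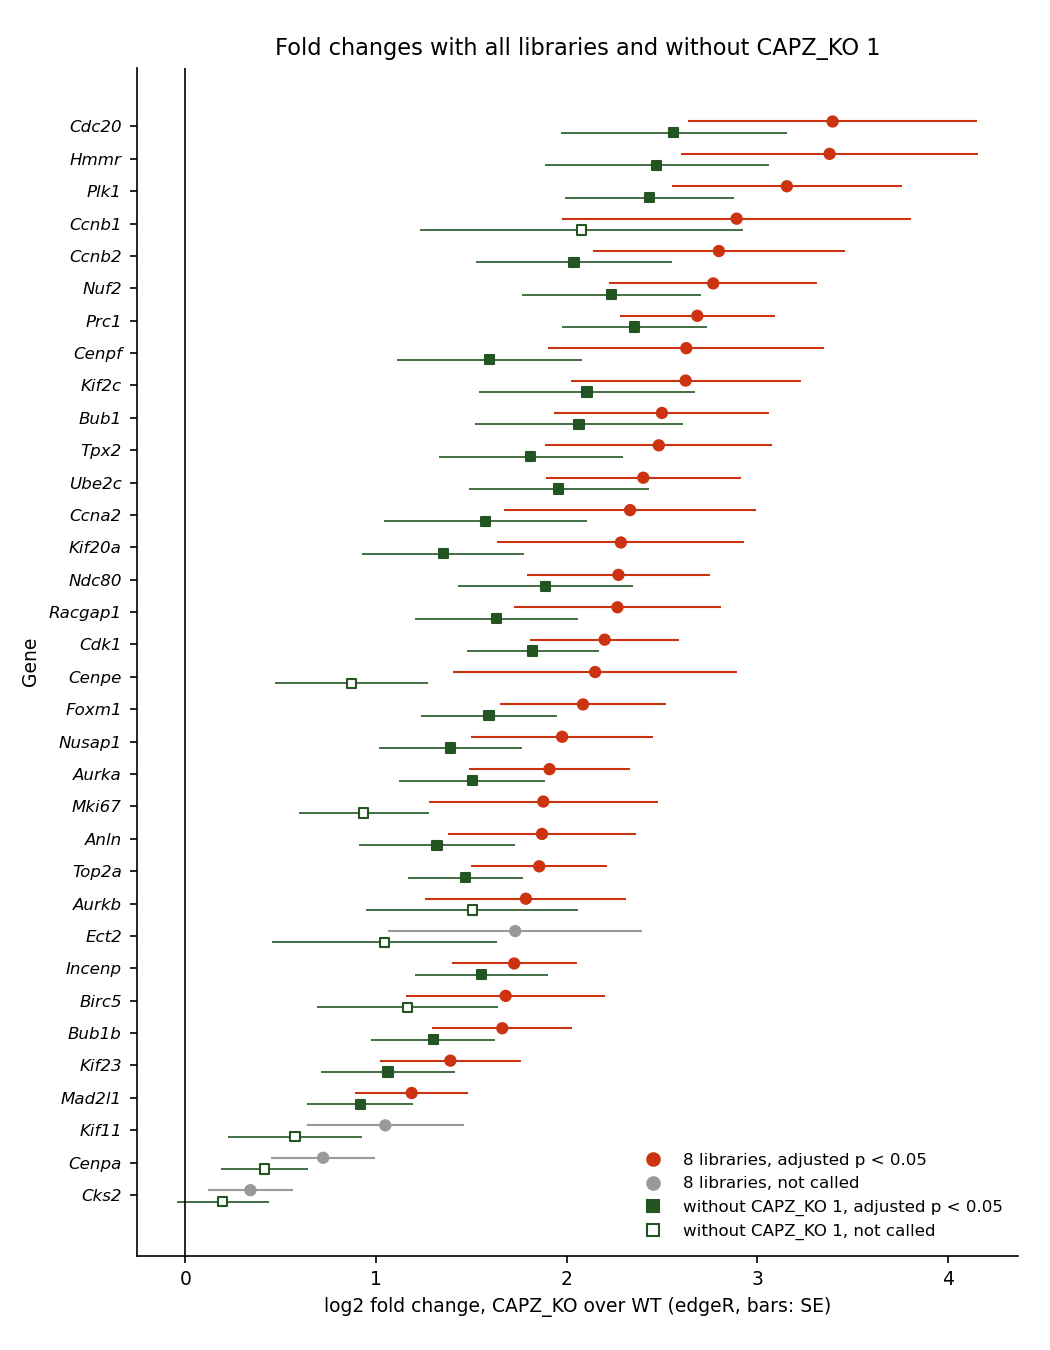
Log2 fold change of CAPZ_KO over WT from edgeR for the 34 tested members, with bars of 1 SE, from all 8 libraries (circles, red where the adjusted p was under 0.05) and without CAPZ_KO 1 (green squares, filled where it was). Every square lies to the left of its circle, and the 5 genes with a red circle and an open square are Ccnb1, Mki67, Cenpe, Aurkb and Birc5.

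Other genes of mitosis, outside the 36 members, were read from the same fit, and differences between lists were not tested. Beside the counts here and below, 22.4% of all tested genes rose and 19.0% fell, and 18.7% rose without CAPZ_KO 1. Of 20 tested spindle and mitotic motor genes, 16 rose and 1 was lower, and the median of their log2 fold changes was 2.11. Without CAPZ_KO 1, 11 rose and 0 were lower, with a median of 1.48. They included the minus-end motor Kifc1 (3.01, adjusted p = 0.00113), the centriole assembly gene Stil (2.80, adjusted p = 0.000911) and Mapre1, the EB1 protein of microtubule tips (0.72, adjusted p = 0.00081). Securin (Pttg1), the inhibitor of separase, fell by 0.50 (adjusted p = 0.0381), from 26.4 to 42.4 CPM in WT to 19.3 to 25.3 CPM in CAPZ_KO. Of 29 tested kinetochore and checkpoint genes outside the members 14 rose and 2 fell, with a median of 0.86, and without CAPZ_KO 1 11 rose and 0 fell. Cenpt, which links centromeric DNA to the NDC80 complex, rose by 2.35 (adjusted p = 4.38e-05) and was even within groups, at 0.987 to 1.43 CPM in WT and 5.73 to 7.14 CPM in CAPZ_KO. Spdl1, which brings dynein to kinetochores, rose by 2.61 (adjusted p = 0.00141) and Dsn1 of the MIS12 complex by 1.67 (adjusted p = 0.000719). Hjurp, the chaperone that loads Cenpa, fell by 0.83 (adjusted p = 0.0343), with overlapping groups (6.22 to 15.2 CPM in WT and 4.66 to 6.53 CPM in CAPZ_KO), and Zw10 of the dynein adaptor at kinetochores fell by 0.39 (adjusted p = 0.0418). The calls of Pttg1, Hjurp and Zw10 were lost without CAPZ_KO 1 (adjusted p = 0.0538, 0.0658 and 0.0614) and without several others (WT 1, CAPZ_KO 3 or CAPZ_KO 4 for Pttg1, WT 3, WT 4, CAPZ_KO 3 or CAPZ_KO 4 for Hjurp, and any but WT 1 and CAPZ_KO 3 for Zw10). Scaled to library size alone Pttg1 and Zw10 had small positive log2 fold changes (0.13 and 0.23).

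Of 10 condensin and cohesion genes 8 rose, with a median of 1.02, but 4 did so without CAPZ_KO 1. Named among them were Cdca5, the sororin that guards cohesion (2.26, adjusted p = 0.00336), Ncaph of condensin I (1.62, adjusted p = 0.00407) and Esco2, a cohesin acetyltransferase (2.53, adjusted p = 0.00557). Of 10 other cytokinesis genes 8 rose, with a median of 1.25, and 8 also without CAPZ_KO 1. Arhgap11a, a RhoA regulator, rose by 1.80 (adjusted p = 0.00049), Cdca8 (borealin) by 1.65 (adjusted p = 0.00939) and Sept2, a septin, by 0.64 (adjusted p = 0.00369). The ESCRT genes that cut the last bridge between daughter cells had a median of 0.02, and 3 of 11 rose, beside 22.4% of all tested genes. Among them was Chmp4c, an ESCRT-III subunit of the abscission checkpoint, at 0.426 to 1.43 CPM in WT and 4.68 to 6.53 CPM in CAPZ_KO (2.77, adjusted p = 0.00019). Chmp4b (0.51, adjusted p = 0.00392) and Chmp6 (0.36, adjusted p = 0.0322) also rose, and the call of Chmp6 was lost on leaving out any library but WT 1 or CAPZ_KO 4 (adjusted p up to 0.131).

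The core subunits and inhibitors of the anaphase-promoting complex had a median log2 fold change of 0.18 over 17 genes, of which 2 rose (Anapc4 by 0.88, adjusted p = 0.000627, and Anapc2 by 0.60, adjusted p = 0.00375) and 2 fell. The 2 that fell were Anapc13 (-0.61, adjusted p = 0.0225) and Cdc26 (-0.36, adjusted p = 0.0466), whose sign was positive when scaled to library size alone (0.02 and 0.27). The call of Anapc13 was lost without CAPZ_KO 1 or CAPZ_KO 4 (adjusted p up to 0.0527) and that of Cdc26 on leaving out any of the 8 libraries (adjusted p up to 0.11). The subunits of DREAM, MuvB and NF-Y had a median of -0.35 over 14 genes, and 2 rose and 4 fell. Beside the counts of both lists, 22.4% of all tested genes rose and 19.0% fell. The repressor subunit Rbl2 (p130) fell by 0.81 (adjusted p = 0.00901), and its relative Rbl1 (p107) rose by 0.95 (adjusted p = 0.00734). Nfya, a subunit of NF-Y, rose by 0.58 (adjusted p = 0.0142, and 0.056 without CAPZ_KO 3). Tfdp2 (-0.65, adjusted p = 0.0212, and 0.0516 without WT 4) and Rbbp4 (-0.62, adjusted p = 0.0192, and 0.0517 without WT 3) fell, and Lin54, the MuvB subunit that binds the CHR, was at -0.42 (adjusted p = 0.0914), with Rbbp4 and Lin54 at 0.02 and 0.21 when scaled to library size alone. Mybl2, the B-Myb partner of MuvB, was too low to test, at 0 to 0.284 CPM in WT and 0.149 to 0.406 CPM in CAPZ_KO.

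**Figure D4:**
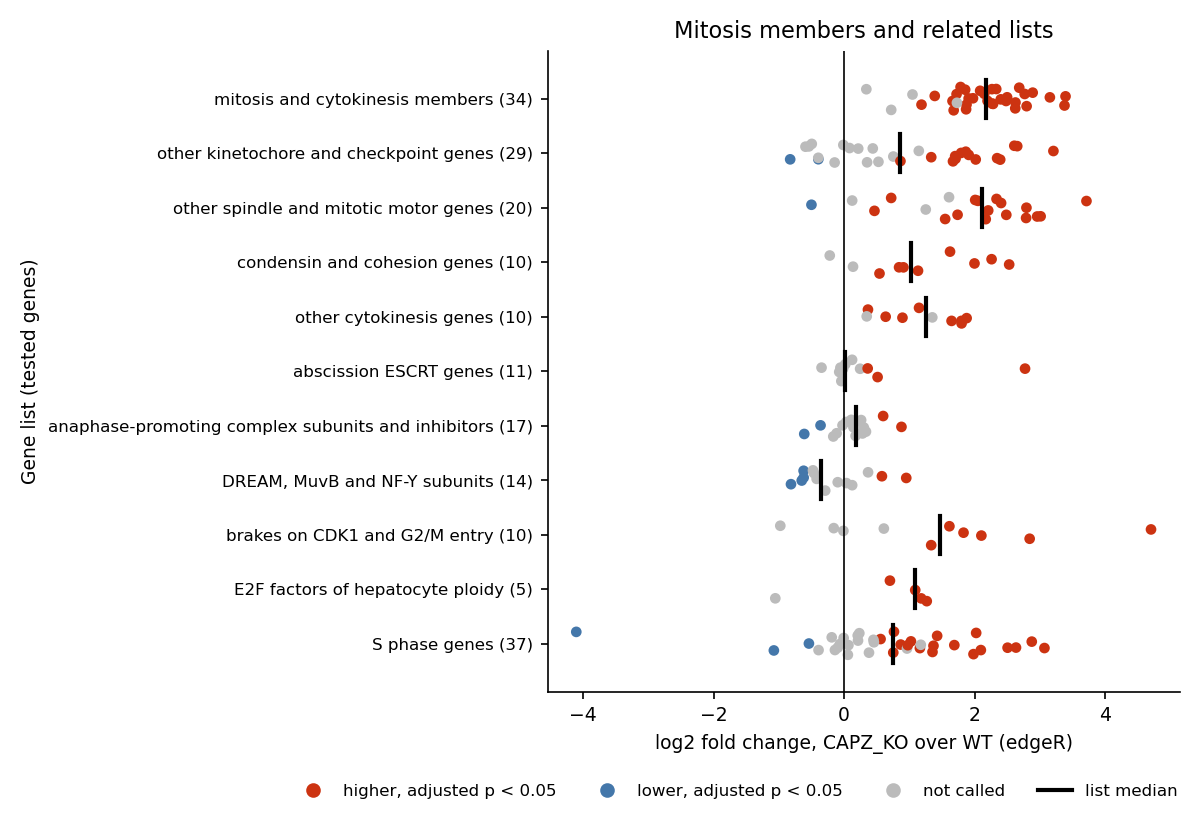
Log2 fold change of CAPZ_KO over WT from edgeR for each tested gene of the members and of 10 related lists, with the number tested in brackets; red points were higher and blue points lower at an adjusted p under 0.05, grey points did not pass, and black bars are list medians. The members (median 2.17) and the other spindle genes (2.11) lie furthest to the right. The ESCRT and anaphase-promoting complex lists centre near 0 (0.02 and 0.18), and the DREAM list lies below 0 (-0.35).

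Of 10 genes that restrain entry into mitosis 6 rose, beside 22.4% of all tested genes, and 4 did not pass. Their median was 1.48. The lowest was Gadd45g, named after its values were seen, at -0.98 (adjusted p = 0.0532), with 19.9 to 38.5 CPM in WT and 6.11 to 19.6 CPM in CAPZ_KO. Cdkn1a, the p21 inhibitor of cyclin-dependent kinases, measured 12.2, 1.65, 2.27 and 6.87 CPM in WT and 168.1, 113.7, 131.2 and 170.6 CPM in CAPZ_KO, a log2 fold change of 4.71 (SE 0.592, adjusted p = 0.000412). It was high in all 4 CAPZ_KO libraries and did not follow the order of the mitosis genes: CAPZ_KO 4, with 121.6 CPM of the members in sum, had as much as CAPZ_KO 1, with 405.6 CPM. Btg2, an antiproliferative gene, rose by 2.84 (adjusted p = 0.000215) and Sfn, the 14-3-3 sigma protein that holds CDK1 in the cytoplasm, by 1.83 (adjusted p = 0.00126). Wee1, the kinase that inhibits CDK1, did not pass (0.61, adjusted p = 0.46), with 1.61 to 27.5 CPM in WT. Among the E2F factors tied to hepatocyte ploidy, E2f1 (1.18, adjusted p = 0.00151), E2f2 (1.27, adjusted p = 0.00643), E2f3 (0.70, adjusted p = 0.0156, and 0.0544 without CAPZ_KO 3) and E2f7 (1.09, adjusted p = 0.0447) rose. The call of E2f7 was lost on leaving out any library but WT 1 (adjusted p up to 0.123). E2f8, which represses cell cycle genes as hepatocytes become polyploid, was at -1.05 (adjusted p = 0.126), with 3.12 to 9.08 CPM in WT and 1.18 to 5.05 CPM in CAPZ_KO.

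S phase genes had another order of libraries than the mitosis genes. Of 37 S phase genes 18 rose and 3 were lower, beside 22.4% and 19.0% of all tested genes. Their median was 0.75. They included Mcm2 (2.03, adjusted p = 0.00047), Lig1 (1.69, adjusted p = 0.000356) and Chaf1a (2.64, adjusted p = 6.81e-05), while Mcm10 (-4.10, adjusted p = 0.000281) and Tk1 (-1.08, adjusted p = 0.00479) fell. The highest CAPZ_KO library was CAPZ_KO 3 for 28 of the 37, CAPZ_KO 2 for 7 and CAPZ_KO 1 for 2, whereas it was CAPZ_KO 1 for 36 of 36 mitosis genes. Per gene, the median excess over the WT mean on the log2(CPM + 0.5) scale was 2.55, 0.76, 1.84 and 1.06 for the members in CAPZ_KO 1 to 4, and 0.61, 0.79, 0.90 and 0.13 for the S phase genes. In CAPZ_KO 2 the 2 lists were close, and in CAPZ_KO 1 they were furthest apart. The summed CPM of the members was 0.0956 to 0.168 of that of the S phase genes in WT, and 0.970, 0.229, 0.404 and 0.369 of it in CAPZ_KO 1 to 4, so that no CAPZ_KO library overlapped WT. The difference in order between the lists was not tested.

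**Figure D5:**
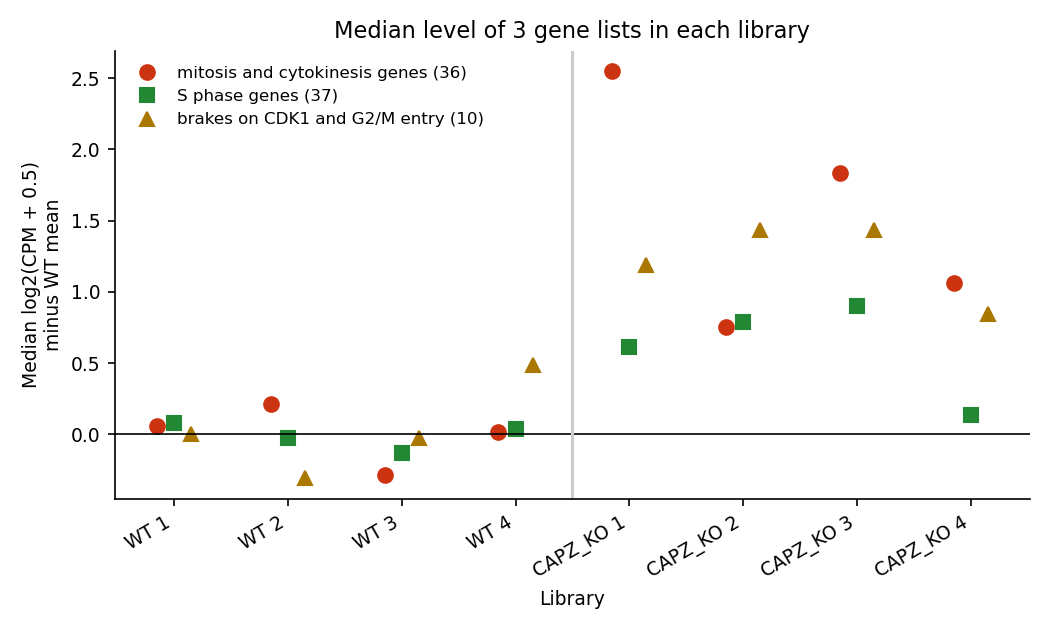
Median over the genes of a list of log2(CPM + 0.5) minus the WT mean, in each library, for the 36 mitosis and cytokinesis genes (red circles), 37 S phase genes (green squares) and 10 genes that restrain CDK1 and G2/M entry (brown triangles). The circles range from 0.76 in CAPZ_KO 2 to 2.55 in CAPZ_KO 1, while the squares are highest in CAPZ_KO 3 (0.90) and lowest in CAPZ_KO 4 (0.13).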

How the data were processed

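Per the labels' protocols, a stranded mRNA kit was used on RNA of perfused liver. The authors deposited a table of unscaled read counts, with a row for each gene symbol and a column for each library. The submitters' processing notes list edgeR, featureCounts, STAR 2.5.3a, R 3.3.1, bcl2fastq and mm10. The sources used here do not give the annotation or the strand setting. Samples were grouped by their titles.

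Genes were kept by filterByExpr (minimum count 10, minimum total 15), which left 12985 and removed 0.0451% to 0.109% of a library's counts. Counts were scaled by TMM (factors 0.774 to 0.847 in WT, 1.18 to 1.33 in CAPZ_KO) and tested with the edgeR 4.0.16 quasi-likelihood test (robust, no covariate, R 4.3.3), with Benjamini-Hochberg adjustment over all tested genes and a threshold of 0.05. Adjusted p-values in the text are from edgeR unless another tool is named. Members were read from this fit, with no test over a list. The common coefficient of variation was 24.9%. Tested on simulated counts for CAPZ_KO against WT (12985 genes), the fit recovered 3 of 50 genes changed 1.5-fold, 33 of 50 changed 2-fold, 45 of 50 changed 4-fold and 50 of 50 changed 8-fold, and called 7 of 12785 unchanged genes. The changed genes were drawn from those with a mean count above 10, each with its own dispersion. The members have a larger median coefficient of variation (46.0%, beside 20.7% over all tested genes), so these rates need not hold for them. No libraries agreed within sampling noise (chi-square per degree of freedom 25.2 to 144.5). Positions come from GENCODE vM21 on GRCm38, and promoters from RefSeq.

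The members and lists were chosen with earlier results of these data known. Named genes are all 36 members, Capzb, Cdkn1a, Wee1, E2f7, E2f8, Mybl2, Lin54 and markers with no count. From each related list, up to 3 called genes per direction with the smallest p were named. Outside this rule, Gadd45g was named after its values were seen. Of the genes this rule selects, 1 is counted in its list but not reported here by name. Alternatives were other scalings (DESeq2 size factors, upper quartile, library sizes), other filters, a stricter threshold, a minimum fold change (1.2), a replicate block, the DESeq2 1.42.0 test, limma-voom (limma 3.58.1) and leaving out each library.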

Additional observations from a re-analysis of the deposited data

Results flagged for a closer look

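In 66 groups of 4 libraries with enough reads, the highest or lowest library was compared with the others by its gap relative to the range, which by chance marks about 1 group in 20, and 3 groups were marked. Cenpe in CAPZ_KO 1, at 9.01 CPM, lay far above the other CAPZ_KO libraries (0.996 to 1.69 CPM). Cks2 in CAPZ_KO 1, at 12.8 CPM, lay above the others, which were within 9.61 to 9.71 CPM. Ccnb1 in WT 2, at 1.32 CPM, lay above the other WT libraries (0 to 0.215 CPM).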

How the results depend on the processing

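The members' fold changes were positive under every alternative run. The number of members higher in CAPZ_KO was 30 with DESeq2 size factors and without robust dispersion, 32 with upper-quartile factors, 34 with library sizes alone, 29 with no filter, 29 with a CPM of at least 1 in 4 libraries, 32 with a mean CPM of at least 0.5, 20 at an adjusted p under 0.01, 29 against a fold change of 1.2, 33 by DESeq2 and 23 by limma-voom. Leaving out 1 library gave 25 to 34 members higher and 0 lower, with a median log2 fold change of 1.56 to 2.41, and 2371 to 2964 genes higher and 2100 to 2658 lower among all genes. Over 679 member values under the alternatives, 619 kept direction and side of the threshold, 46 lost the call and 0 reversed. Scaling to library size alone moved the median of all genes by 0.62 and gave 7665 genes higher and 700 lower, and an adjusted p under 0.01 gave 1864 and 1439, against 2913 and 2469. With library sizes alone the log2 fold change was 0.23 for Zw10, 0.13 for Pttg1, 0.0204 for Anapc13, 0.27 for Cdc26, 0.017 for Rbbp4 and 0.21 for Lin54, all negative after TMM. In their deviations from the group means, same-numbered libraries correlated at 0.245, 0.0148, 0.0733 and 0.300. WT 1, WT 3 and WT 4 each correlated best with the CAPZ_KO library of their own number, and WT 2 did not. The main fit used no pairing, and whether the numbers mark paired or batched samples was not tested. A fit with the replicate block gave 28 members higher (Ccna2 and Ccnb1 lost), with a median of 1.87, and 2974 genes higher and 2411 lower. Raw counts of 610 to 1023 over all members in a WT library limit the precision of single members.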
